A study of Mus musculus with 8 samples.

Results

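The genes described here encode the proteins of the cell's cytosolic ribosome and of the separate ribosome inside mitochondria. They were chosen by symbol: Rpl and Rps with a number for the large and small cytosolic subunit, Mrpl and Mrps with a number for the large and small mitochondrial subunit. S6 kinase genes (Rps6k) and symbols marked as pseudogenes with "-ps" were left out. Of 19356 genes on the array with a probe set of exactly 1 symbol, 136 were such genes. They fell into 35 of the cytosolic large subunit, 24 of the cytosolic small subunit, 48 of the mitochondrial large subunit and 29 of the mitochondrial small subunit. All 136 were tested, since no filter on low values was used. A further 21 symbols that match the rule, among them Rpl3, Rpl11, Rpl32, Rps16 and Rps24, occur only on probe sets with several symbols and are not among the members. The rule goes by the symbol, so not all members are ribosomal subunits. In the cytosolic small class, Rps19bp1 encodes a nucleolar protein that binds Rps19, and Rps23rg1 is a retrogene derived from Rps23. Likewise Mrps18a carries a small subunit symbol although its protein sits in the large subunit, and Mrps36 is now known as a subunit of the 2-oxoglutarate dehydrogenase complex.

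The arrays carried RNA from the caudal portion of the urogenital ridge of E10.75 mouse embryos, the region where the kidney begins to form. There were 4 wildtype and 4 Sox11 knock-out replicates, all of mixed genetic background and none treated. Sox11 is a SoxC transcription factor gene. Replicates are called independent in the labels, but the sources used here do not say whether 1 was a single embryo or several pooled ones, and RNA of all cells of the ridge was measured together. The values are log2 signals, so 1 unit is a doubling, and every change is knock-out minus wildtype on that scale. A change of 0.10 is 1.07-fold.

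Sox11 itself read 11.76, 11.81, 11.72 and 11.86 in wildtype and 9.24, 9.13, 8.93 and 9.12 in knock-out arrays, which sets the genotypes apart as labelled. The sources used here do not say whether its probes lie in the deleted stretch. Of 13 measured genes of the urogenital ridge (14 listed), 12 exceeded the all-gene median level, among them Pax2, Wt1, Osr1 and Eya1. The mean over the list was 9.89 to 10.02 in wildtype and 9.92 to 9.95 in knock-out arrays. Its genes went both ways, 3 higher and 3 lower at an unadjusted limma p under 0.05, where 7.29% and 9.38% of all genes were. Ret, the receptor tyrosine kinase of the nephric duct, rose by 0.41 (limma adjusted p = 0.0220), and Six2, a factor of nephron progenitors, fell by 0.48 (limma adjusted p = 0.0437). Ret missed the threshold without wildtype replicates 2 or 3 or knock-out replicates 1, 2 or 3 (up to 0.0764), and Six2 without any 1 array other than wildtype replicate 1 (up to 0.122). Both also missed it without moderation (0.0692 and 0.134), and Six2 under both other normalizations (0.0804 and 0.0697) and in the fit that adds Y-linked signal (0.0797). The Y-linked genes Kdm5d and Eif2s3y gave signal in wildtype replicate 1 and in knock-out replicates 3 and 4, so the sexes were unevenly spread. The members chosen by symbol varied less within the knock-out group (median SD 0.08) than within wildtype (0.13), and the medians over all genes were 0.10 and 0.12.

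The cytosolic ribosome translates nearly all mRNAs of the cell. Its proteins are made in equal numbers, imported into the nucleolus and built onto ribosomal RNA. Most of their mRNAs start with a C followed by a run of pyrimidines, the terminal oligopyrimidine or TOP motif, through which mTOR signalling controls their translation. The mitochondrial ribosome translates only the few mRNAs of the mitochondrial genome, which encode subunits of the respiratory chain, but its proteins are encoded in the nucleus and imported. Growing embryonic tissue makes large amounts of cytosolic ribosomes, and mutations in single ribosomal protein genes cause anaemia, skin pigment changes or skeletal patterning defects.

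The start of the transcript is where cytosolic ribosomal genes are known to carry the TOP motif, so it is shown for 7 of them. Rps6 is the small subunit protein phosphorylated by S6 kinases, Rpl38 is a gene whose mutation alters the pattern of the axial skeleton, and Rps10, Rpl27a and Rpl7a were higher in every knock-out array than in any wildtype array. Rpl14 and Rps2 are shown because they lay on the other side of 0. All 7 have a pyrimidine run near the start, which 35.1% of the promoter windows of cytosolic members had. Rps12, Rps25, Rpl37a, Rpl10a and Rpl41, also higher in every knock-out array, had no run counted from within 5 bases of the start. Outside that distance Rps12 had a run past the start, and a window of Rpl10a had a run before it. Each sequence runs from 10 bases before to 20 bases after the RefSeq start site in GRCm38.p6, written along the gene's own strand. Capitals mark the pyrimidine run as counted from a C within 5 bases of the start.
Rps6, chr4:86857348-86857377, minus strand: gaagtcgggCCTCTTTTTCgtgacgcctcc
Rpl38, chr11:114668570-114668599, plus strand: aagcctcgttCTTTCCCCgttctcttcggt
Rps10, chr17:27635225-27635254, minus strand: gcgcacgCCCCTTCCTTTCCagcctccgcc
Rpl27a, chr7:109519185-109519214, plus strand: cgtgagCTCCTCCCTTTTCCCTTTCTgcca
Rpl7a, chr2:26910797-26910826, plus strand: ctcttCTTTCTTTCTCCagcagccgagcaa
Rpl14, chr9:120571507-120571536, plus strand: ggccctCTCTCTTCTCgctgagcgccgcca
Rps2, chr17:24720053-24720082, plus strand: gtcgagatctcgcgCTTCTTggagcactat
The marked stretches were 6 to 20 bases long, shortest in Rps2 and longest in Rpl27a. In Rpl38, Rpl7a and Rpl14 further pyrimidines precede the marked C, so their whole runs are longer than marked. That of Rpl7a reaches the edge of the sequence shown.

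Some mitochondrial members held 8-base matches to the motifs of YY1 and NRF1, transcription factors known for driving nuclear genes of mitochondrial function. The following windows, shown because both motifs were commoner there than in promoters at large, give the match in capitals with 8 bases on each side, again in GRCm38.p6 and along the gene's strand.
Mrps27 (YY1), chr13:99344792-99344815, plus strand: tgcgctccAAGATGGCggctccca
Mrps18a (YY1), chr17:46111007-46111030, plus strand: tgcgttccAAGATGGCggccctca
Mrpl49 (YY1), chr19:6057724-6057747, minus strand: gaggcgccAAGATGGCagcagcgg
Mrpl17 (NRF1), chr7:105811083-105811106, minus strand: gagttactGCGCATGCgtcctctg
Mrpl22 (NRF1), chr11:58171623-58171646, plus strand: ctcggactGCGCATGCgtatagtc
The YY1 matches shown start 12 to 17 bases past the start site, inside the transcript. The NRF1 match lies 11 bases before the start in Mrpl17 and 33 bases before it in Mrpl22, counted to its first base.

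Promoter windows from 250 bases before to 50 bases after the start were held by RefSeq for 116 of the members, in 131 windows, and 20 members had none. The YY1 motif AAGATGGC, searched on both strands, was in 16.2% of mitochondrial and 5.26% of cytosolic windows, against 2.75% of all 32851 windows. It was most frequent in the mitochondrial small subunit at 22.2%. The NRF1 motif GCGCATGC, whose reverse complement overlaps it, was in 10.81% of mitochondrial, 5.26% of cytosolic and 2.71% of all windows. By subunit it was in 14.9% of mitochondrial large and 3.70% of mitochondrial small windows. The cytosolic shares were 9.09% for the large and 0% for the small subunit. The ETS motif CCGGAAG was in 31.6% of cytosolic, 33.8% of mitochondrial and 8.86% of all windows. GC boxes (GGGCGG) were in 54.4% of cytosolic, 52.7% of mitochondrial and 35.7% of all windows, and TATAAA in 8.77%, 6.76% and 13.6%. A pyrimidine run was searched from a C within 5 bases of the start, over at least 5 bases. Windows where other pyrimidines precede that C were counted too. Such a run was present in 35.1% of cytosolic, 23.0% of mitochondrial and 18.3% of all windows. Start sites differ between annotations by a few bases, and a shift of that size moves the run out of the search. These are matches of letters, with no measurement of binding.

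**Figure D1:**
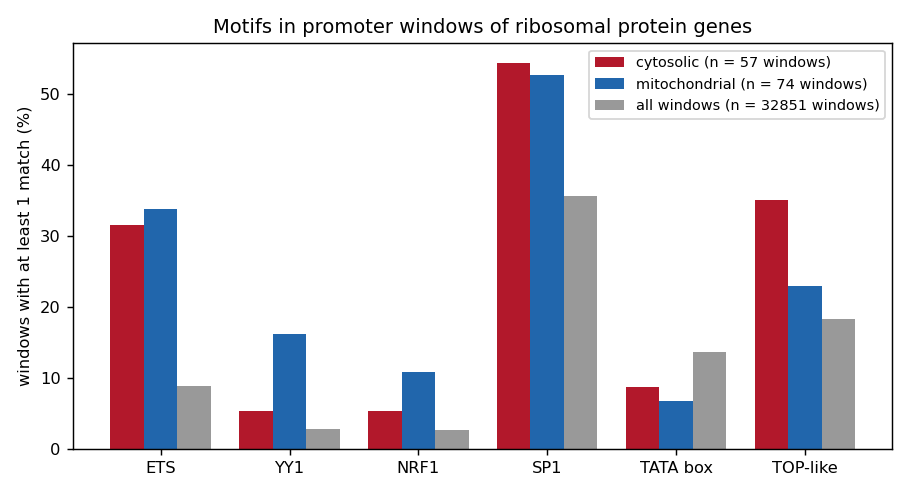
Share of RefSeq promoter windows (%) with at least 1 match to each motif, for 57 cytosolic, 74 mitochondrial and all 32851 windows. The YY1 bar reaches 16.2% for mitochondrial and 5.26% for cytosolic windows, while the ETS bars of both kinds stand close together at 31.6% and 33.8%.

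None of the 136 genes passed the test between genotypes, a limma adjusted p under 0.05, where 1.44% of all genes did (0.362% higher and 1.08% lower). The lowest adjusted p was 0.127, in Rps12, and no member passed with trended and robust moderation, without moderation or at a threshold of 0.10 either. The members nevertheless did not lie evenly around 0. Of the 59 cytosolic genes 49 were higher on average in knock-out ridges, with a median change of 0.10 or 1.07-fold. Of the 77 mitochondrial genes 32 were higher, with a median of -0.02 that turned positive under median centring and under a further quantile normalization (to 0.020, with 42 above 0) and without wildtype replicate 1. Over all genes 49.9% lay above 0, and the median was -0.00 with the middle 50% between -0.09 and 0.10. Members are not replicates, and the difference between both kinds of ribosome was not tested.

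At an unadjusted limma p under 0.05, 12 cytosolic genes were higher and 1 was lower, against 7.29% and 9.38% of all genes. For mitochondrial genes the counts were 3 higher and 4 lower. Among the cytosolic genes 12 (20.3%) had every knock-out array above every wildtype array, where 4.04% of all genes did, and 1 had every knock-out array below, where 6.47% did. Of the mitochondrial genes 2 (2.60%) were fully above and 4 (5.19%) fully below. The cytosolic share above was about 5 times the background, and the mitochondrial shares, from 2 and 4 genes, were near it. Without wildtype replicate 1, 19 cytosolic and 6 mitochondrial genes were fully above, where 6.51% of all genes were. Mitochondrial genes fully below numbered 9 without wildtype replicate 3 (8.52% of all genes), 12 without wildtype replicate 4 (10.1%) and 7 without knock-out replicate 2 (9.58%). Without knock-out replicate 4, 2 cytosolic genes were fully below (7.68% of all genes). The changes were small: 75 of the 136 were under 0.10 in size, 6 exceeded 0.25, and the highest fold among cytosolic genes above 0 was 1.21.

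Large and small subunits of the cytosolic ribosome gave similar counts. In the large subunit 30 of 35 lay above 0 with a median of 0.10, and in the small subunit 19 of 24 with a median of 0.09. Without Rps19bp1 and Rps23rg1, which are no subunits, the small subunit had 19 of 22 and a median of 0.10. The mitochondrial large subunit had 22 of 48 above 0 and a median of -0.00, and the small subunit 10 of 29 and -0.05. Without wildtype replicate 4 the mitochondrial small subunit had 5 above 0.

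**Figure D2:**
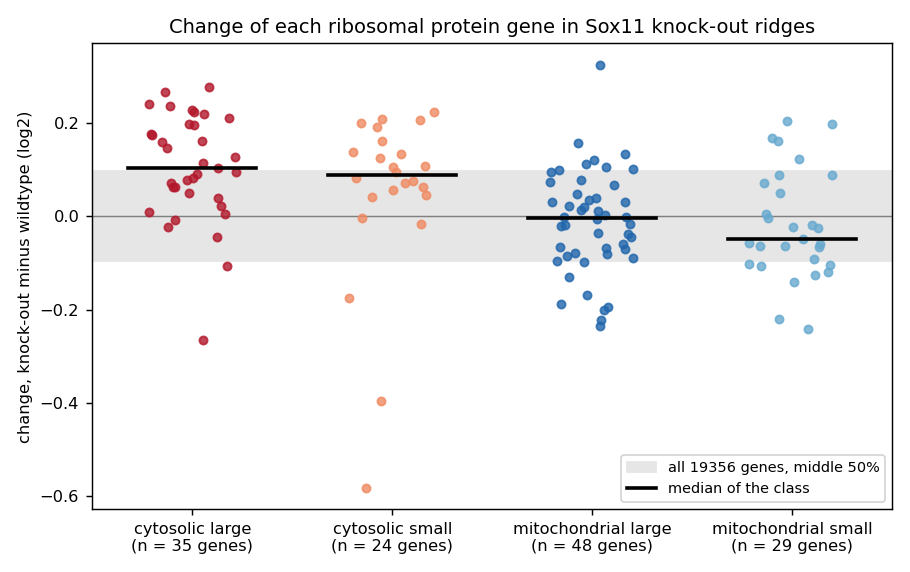
Change of each member, knock-out minus wildtype on the log2 scale, by class. Points are genes, black lines are class medians, and the grey band is the middle 50% of all 19356 genes. Both cytosolic classes have medians near the top of the band (0.10 and 0.09) and both mitochondrial classes lie close to 0 or below (-0.00 and -0.05).

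The array by array values show how evenly this was carried. For each array the median over members of the signal minus that member's wildtype mean was taken. Over the cytosolic genes this was 0.04, -0.01, -0.01 and -0.01 in wildtype replicates 1 to 4 and 0.11, 0.08, 0.10 and 0.10 in the knock-out replicates, a mean of 0.10 ± 0.01 (SD, n = 4) in the knock-out. The groups did not overlap, and wildtype replicate 1 stood nearest to the knock-out arrays. For the cytosolic large subunit the knock-out values were 0.18, 0.08, 0.10 and 0.11, with replicate 1 highest, and for the small subunit 0.07, 0.09, 0.12 and 0.10, with replicate 1 lowest. The mitochondrial genes read 0.08, 0.00, 0.02 and -0.11 in wildtype and -0.02, -0.01, -0.00 and -0.04 in knock-out arrays. Here the knock-out arrays all fell inside the wildtype range, which replicate 4 stretched downwards in both subunits. The 1114 genes that are no member but have a level of 11 or more read between -0.01 and 0.01 in wildtype and between -0.03 and 0.00 in knock-out arrays.

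**Figure D3:**
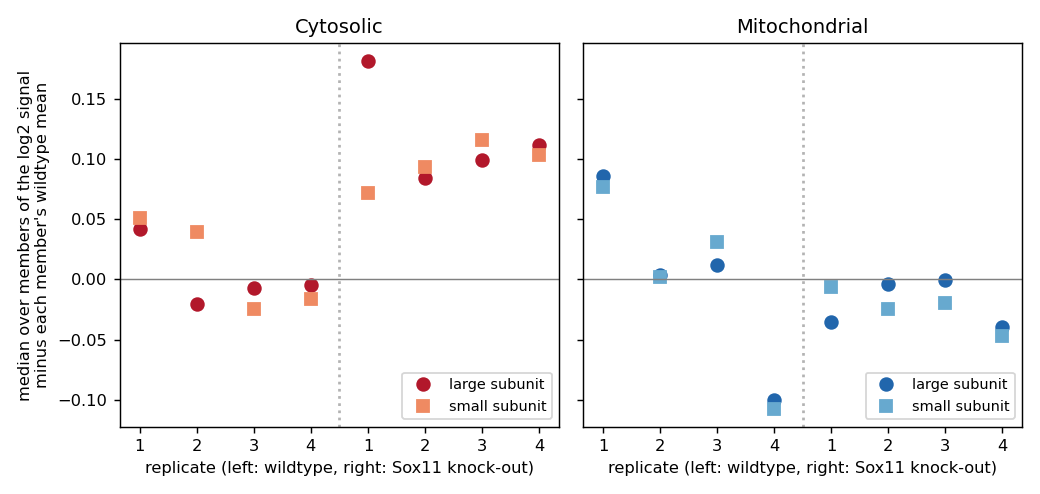
Median over members of the log2 signal minus each member's wildtype mean, for every array, with the cytosolic ribosome on the left and the mitochondrial on the right. Circles are large and squares small subunits. The knock-out points of both cytosolic subunits lie between 0.07 and 0.18, above their wildtype points, while mitochondrial wildtype points spread from -0.11 to 0.09 around the knock-out points.

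In the cytosolic large subunit 8 of 35 genes had non-overlapping groups with the knock-out higher, where 4.04% of all genes did. Rpl19, a protein at the tunnel through which new chains leave, read 12.79, 12.67, 12.66 and 12.59 in wildtype and 12.92, 12.84, 12.86 and 12.87 in knock-out arrays, a change of 0.20 (SE 0.06, limma adjusted p = 0.168). Rpl37a, a zinc-binding protein, read 12.26, 12.33, 12.32 and 12.08 against 12.53, 12.36, 12.42 and 12.52, a change of 0.21 (SE 0.08, limma adjusted p = 0.209). Wildtype replicate 4 was the lowest array in both. Rpl7a read 11.26, 11.26, 11.35 and 11.22 against 11.45, 11.38, 11.43 and 11.46, a change of 0.16 (SE 0.06, limma adjusted p = 0.226). Rpl7 changed by the same amount (0.16, limma adjusted p = 0.274), but its highest wildtype array and its lowest knock-out arrays were equal to 2 decimals at 12.24.

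Rpl10a, which forms the stalk where spent tRNA leaves, held tight groups at 13.23, 13.17, 13.20 and 13.23 against 13.31, 13.30, 13.34 and 13.30 (change 0.10, SE 0.06, limma adjusted p = 0.386). Rpl41, the smallest ribosomal protein, read 13.48, 13.54, 13.57 and 13.53 against 13.64, 13.67, 13.57 and 13.62, with the same change of 0.10 (limma adjusted p = 0.438). Their changes were near the class median. Rpl13 and Rpl27a had 1 wildtype array far below the others. Rpl27a, whose mutation gives mice dark feet and ataxia, read 12.16, 12.20, 12.14 and 11.71 in wildtype and 12.33, 12.28, 12.27 and 12.25 in knock-out arrays. Its change of 0.23 (SE 0.10, limma adjusted p = 0.301) was 0.11 without wildtype replicate 4.

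The 3 largest changes above 0 in the cytosolic large subunit were not the most even ones. Rpl29, which binds heparin outside the ribosome as well, read 10.66, 10.18, 10.37 and 9.81 in wildtype and 10.68, 10.47, 10.50 and 10.49 in knock-out arrays (change 0.28, SE 0.15, limma adjusted p = 0.378). Without wildtype replicate 4 its change was 0.13. Rpl34 was the most scattered, at 10.20, 9.56, 11.17 and 10.88 against 11.01, 11.52, 10.16 and 10.19, so its change of 0.27 had an SE of 0.37 (limma adjusted p = 0.749) and turned to -0.03 without wildtype replicate 2. Rpl23a, the docking site at the tunnel exit for factors that meet the new chain, read 12.10, 11.82, 11.82 and 11.61 against 12.10, 12.04, 12.09 and 12.08 (change 0.24, SE 0.10, limma adjusted p = 0.241), and only wildtype replicate 1 reached the knock-out level.

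Against the trend of its class, Rpl14 was lower in every knock-out array. It read 9.24, 9.14, 9.25 and 9.47 in wildtype and 9.06, 9.07, 8.86 and 9.05 in knock-out arrays, a change of -0.27 (SE 0.09, limma adjusted p = 0.159). Next came Rpl30 at -0.11 (SE 0.10, limma adjusted p = 0.630), with overlapping groups between 8.93 and 9.39. Rpl10, which joins late in the making of the large subunit and whose probe set had the highest signal of the class, read 13.78, 13.66, 13.70 and 13.63 against 13.74, 13.67, 13.69 and 13.69, a change of 0.00 (SE 0.06, limma adjusted p = 0.980).

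In the cytosolic small subunit 4 of 24 genes were higher in every knock-out array, where 4.04% of all genes were. Rps12 read 11.44, 11.56, 11.38 and 11.43 in wildtype and 11.74, 11.69, 11.63 and 11.64 in knock-out arrays (change 0.22, SE 0.07, limma adjusted p = 0.127). The gap between its groups was 0.07, from 11.56 to 11.63. Rps4l, a copy of Rps4x, read 9.83, 9.77, 9.77 and 9.80 against 10.09, 9.86, 10.03 and 10.01 (change 0.21, SE 0.07, limma adjusted p = 0.162). Rps25 read 11.79, 11.75, 11.60 and 11.70 against 11.85, 11.82, 11.97 and 11.99 (change 0.20, SE 0.07, limma adjusted p = 0.198). Rps10 read 11.28, 11.35, 11.36 and 11.27 against 11.46, 11.54, 11.45 and 11.45 (change 0.16, SE 0.06, limma adjusted p = 0.215).

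Rps15 had a change of 0.21 (SE 0.09, limma adjusted p = 0.300) with wildtype replicate 4 at 12.56 and the other wildtype arrays at 12.88 to 12.98, next to 12.98 to 13.09 in the knock-out. Without that array its change was 0.11. Rps6 read 13.78, 13.71, 13.69 and 13.85 against 13.80, 13.77, 13.89 and 13.87, a change of 0.08 (SE 0.07, limma adjusted p = 0.581) with overlapping groups.

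**Figure D4:**
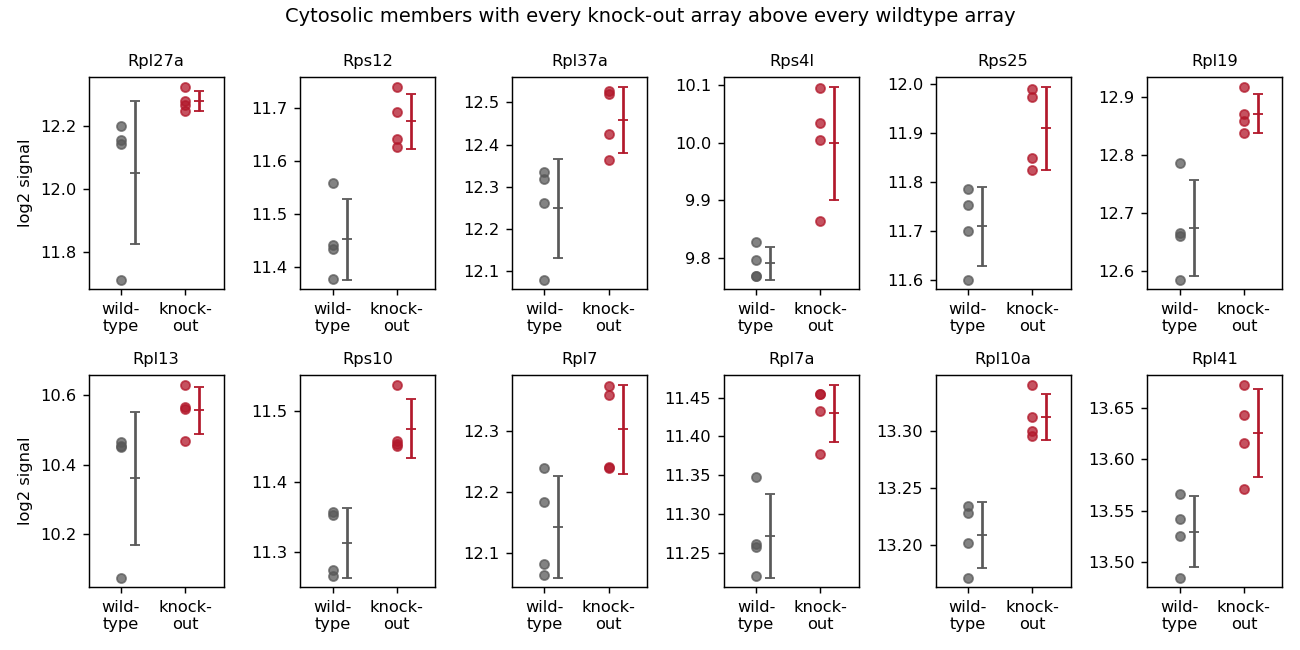
Log2 signal of the 12 cytosolic members with every knock-out array above every wildtype array, ordered by change. Points are arrays, and the bars beside them are the mean ± SD of 4 arrays, with a separate vertical scale in each panel that does not start at 0. The gap between groups is 0.07 in Rps12 and vanishes to 2 decimals in Rpl7, and Rpl27a and Rpl13 each have 1 low wildtype array.

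The lowest values of the cytosolic small subunit came from genes with wide scatter. Rps2 read 12.48, 12.34, 12.16 and 12.49 in wildtype and 11.75, 11.58, 11.90 and 12.65 in knock-out arrays, so 3 knock-out arrays lay below all wildtype arrays and replicate 4 lay above them. Its change was -0.40 (SE 0.20, limma adjusted p = 0.336). Without knock-out replicate 4 it was -0.62 with a limma adjusted p of 0.0434, the one setting in which a member passed the threshold. Its 3 probe sets gave -0.40, -0.53 and 0.02, so they disagreed in sign. Rps23rg1 (7.26, 7.59, 7.80 and 6.999 against 7.04, 7.93, 5.90 and 6.44) had the largest value in size at -0.58 but an SE of 0.36 (limma adjusted p = 0.440). Rps19bp1 was at -0.17 (SE 0.09, limma adjusted p = 0.343).

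Many cytosolic genes have processed pseudogenes and retrocopies across the genome, whose probe sets can read the same mRNA. For 36 of the cytosolic members the array held 150 further probe sets with the same single symbol. Of these 148 lay above 0, and their median change was 0.17. Since 7 of them held the same values as a chosen probe set and others duplicated each other, 138 had values of their own, of which 136 lay above 0 with a median of 0.16. A further 237 probe sets carried several symbols, at least 1 of them a cytosolic member, and 213 lay above 0 with a median of 0.13. These probe sets read the same RNA on the same arrays and may share probes with the members, which could not be checked. They are therefore no independent evidence. For the mitochondrial members there were 8 further probe sets, 5 above 0, with a median of 0.01. Of the 44 members with several probe sets, 5 had both signs: Rps2, Rpl27, Mrpl41, Mrpl51 and Mrps33. Rps12 had the most probe sets, 14, all above 0.

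In the mitochondrial large subunit none of 48 genes had every knock-out array higher, where 4.04% of all genes did. Every knock-out array was lower in 3 of the 48, a share near the 6.47% of all genes. Mrpl19 read 9.58, 9.53, 9.54 and 9.48 in wildtype and 9.44, 9.38, 9.42 and 8.96 in knock-out arrays (change -0.24, SE 0.10, limma adjusted p = 0.281), with knock-out replicate 4 far below the rest. Mrpl4 read 9.30, 9.35, 9.32 and 9.57 against 9.13, 9.30, 9.24 and 9.06 (change -0.20, SE 0.08, limma adjusted p = 0.258). Mrpl34 read 11.27, 11.13, 11.39 and 11.12 against 11.10, 11.07, 10.98 and 11.01 (change -0.19, SE 0.08, limma adjusted p = 0.251). All 3 proteins have a bacterial counterpart, as do 30 listed members of this subunit, beside 16 specific to mitochondria. The gaps between the groups of these 3 genes were at most 0.04. Mrpl36 was at -0.22 (SE 0.12, limma adjusted p = 0.373) with overlapping groups.

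On the upper side, Mrpl20 had the largest change above 0 of all members at 0.33 (SE 0.13, limma adjusted p = 0.256). It read 8.62, 8.56, 8.90 and 8.16 in wildtype and 8.96, 8.89, 8.74 and 8.95 in knock-out arrays, so the groups overlapped through wildtype replicate 3 and knock-out replicates 2 and 3. Mrpl23 was at 0.16 (limma adjusted p = 0.365), and Mrpl54 at 0.13 (limma adjusted p = 0.521). Mrpl42, with the highest signal of the class (mean 11.69), was at -0.04 (limma adjusted p = 0.839), and Mrpl22, with the lowest (6.83), at -0.19 (limma adjusted p = 0.369).

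The mitochondrial small subunit held the lowest p of the mitochondrial genes. Mrps5, near the entrance of the mRNA, read 10.23, 10.31, 10.17 and 10.38 in wildtype and 9.98, 10.10, 10.10 and 9.94 in knock-out arrays, a change of -0.24 (SE 0.07, limma adjusted p = 0.131). Its groups were 0.07 apart. Mrps34, a protein with no bacterial counterpart, was at -0.22 (SE 0.12, limma adjusted p = 0.371), and Mrps21 at -0.14 (limma adjusted p = 0.501). Higher in every knock-out array were Mrps16 (8.15, 7.85, 8.14 and 8.03 against 8.23, 8.27, 8.27 and 8.19, change 0.20, limma adjusted p = 0.240) and Mrps36 (8.70, 8.68, 8.65 and 8.56 against 8.91, 8.75, 8.86 and 8.75, change 0.17, limma adjusted p = 0.243). Mrps18a was at 0.20 (limma adjusted p = 0.334), with wildtype replicate 1 equal to the highest knock-out array at 10.34. As said above, Mrps36 and Mrps18a do not belong to the small subunit by their proteins. Mrps15, with the highest signal, was at 0.01 (limma adjusted p = 0.986), and Mrps12, with the lowest, at 0.16 (limma adjusted p = 0.408).

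Split by origin, the 30 mitochondrial large subunit genes with a bacterial homologue had 14 above 0 (median -0.00) and the 16 measured genes specific to mitochondria 7 (median -0.02). In the small subunit 8 of 18 with a bacterial homologue lay above 0 (median -0.02), and 1 of 9 specific to mitochondria (median -0.06). Mrps25, with Mrps34 the lowest p of the specific small subunit genes, was at -0.11 (limma adjusted p = 0.438). Mrpl49 had the lowest p of the specific large subunit genes, at -0.09 (limma adjusted p = 0.482).

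The level of signal differed by class, with the warning that probe sets differ in brightness and single genes cannot be ranked by it. Mean levels ran from 5.74 to 13.69 (median 12.11) in the cytosolic large, 7.12 to 13.80 (11.37) in the cytosolic small, 6.83 to 11.69 (9.27) in the mitochondrial large and 6.89 to 10.83 (8.79) in the mitochondrial small subunit, where all genes had a median of 7.55. Of the cytosolic genes 43 of 59 lay above the 90th percentile of all genes, and of the mitochondrial 6 of 77. Changes over all genes varied with level, so the members were also set beside other genes of the same level. From 10 to 11, 8 of 8 cytosolic members lay above 0 (median 0.19) and 37.8% of the 1919 others did (median -0.03). From 11 to 12 these were 10 of 12 (0.11) and 39.8% of 870 (-0.03), from 12 to 13 17 of 19 (0.09) and 42.2% of 211 (-0.02), and above 13 7 of 7 (0.10) and 66.7% of 33 (0.04). Between 8 and 10, where most mitochondrial genes lay, 5 of 9 cytosolic members (median 0.02), 22 of 55 mitochondrial members (-0.02) and 35.1% of 5452 others (-0.05) were above 0. From 10 to 11, 5 of 10 mitochondrial members lay above 0, with a median of -0.01.

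**Figure D5:**
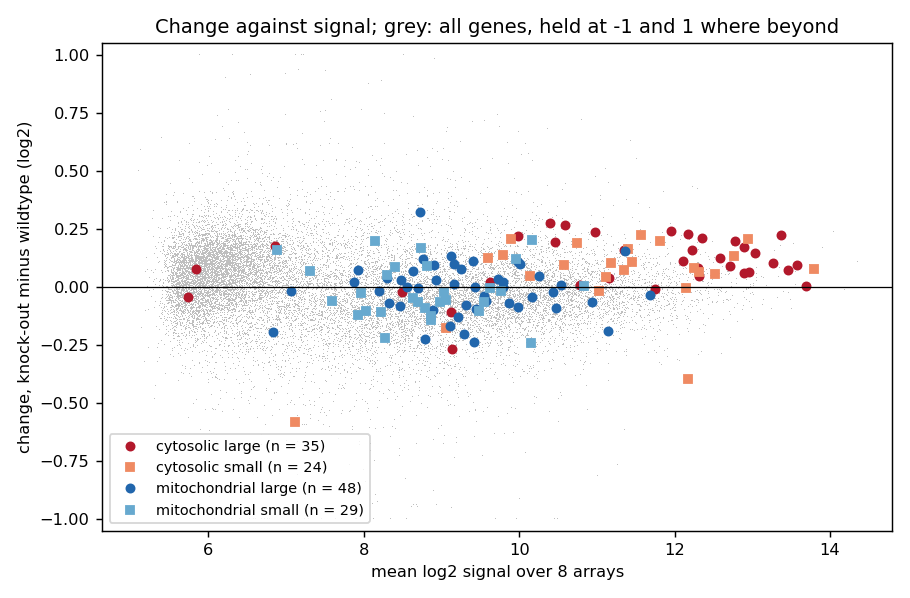
Change (knock-out minus wildtype, log2) against the mean log2 signal over 8 arrays for the members (coloured) and all 19356 genes (grey, held at -1 and 1 where beyond). Most cytosolic members (red) lie to the right of a level of 10 and above 0, where 37.8% to 66.7% of other genes are above 0 depending on the level, and mitochondrial members (blue) lie around 0 between 7 and 12.

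Paralogues are copies of a ribosomal protein gene, often expressed in few tissues. Of the 17 genes in the paralogue list 11 were measured as members. Rpl3l, known from heart and skeletal muscle, and Rpl10l and Rpl39l, known from testis, had signals below the all-gene median, with mean levels of 5.85, 6.86 and 5.74. Their changes were 0.08 (limma adjusted p = 0.662), 0.18 (0.519) and -0.04 (0.863). Rps27l, a gene induced by p53, had a mean level of 11.03 and a change of -0.02 (limma adjusted p = 0.942). Rpl7l1 was at -0.01 (limma adjusted p = 0.965) beside 0.16 for Rpl7, and Rpl22 at 0.02 (limma adjusted p = 0.897). The pair Rps4x and Rps4l was at 0.08 (limma adjusted p = 0.601) and 0.21, although probes for such similar copies can read both transcripts. X-linked Rps4x, Rpl10 and Rpl36a (0.13, limma adjusted p = 0.339) all lay above 0, by 0.08 at the median, though Rpl10 turned to -0.063 under a further quantile normalization.

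Of 18 listed genes that are mutated in Diamond-Blackfan anaemia, a failure of red cell production, 8 were measured as members. All 8 lay above 0, with a median of 0.14, where 49 of all 59 cytosolic genes did, with a median of 0.10. The lowest p values of the 8 were those of Rps10 and of Rpl5, which binds 5S ribosomal RNA and can hold back Mdm2. Rpl5 read 12.97, 12.86, 12.94 and 13.06 in wildtype and 13.14, 13.01, 13.13 and 13.13 in knock-out arrays (change 0.15, SE 0.07, limma adjusted p = 0.307). Only knock-out replicate 2 overlapped with wildtype. Of 8 cytosolic genes known from mouse mutants with patterning, skin or blood defects, 7 lay above 0 with a median of 0.11. That too was near the share and median of all cytosolic genes. Rpl24, the gene of the Belly spot and tail mutant, read 11.07, 10.746, 10.748 and 10.86 against 11.05, 11.05, 11.17 and 11.10 (change 0.24, SE 0.08, limma adjusted p = 0.194). Only wildtype replicate 1 reached the knock-out range. Rpl38 was at 0.09 (limma adjusted p = 0.582), and Rps20, mutated in dark-skinned mice, at -0.00 (limma adjusted p = 0.986).

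The cytosolic genes were also described by the pyrimidine run at their start, and the difference was not tested. Of the 18 genes with such a run 13 lay above 0 (median 0.08), and of the 30 without one 27 did (median 0.10). Runs farther than 5 bases from the start were not counted. Of the genes that are no subunits, Rps23rg1 (-0.58) was among those with a run and Rps19bp1 (-0.17) among those without. The list of other mRNAs known to carry a TOP motif, translation factors, had 11 of 13 measured, 6 above and 5 below 0, with a median of 0.04. None passed the adjusted threshold, and 3 were higher at an unadjusted limma p under 0.05, where 7.29% of all genes were: Naca, which binds new chains at the tunnel exit, at 0.23 (limma adjusted p = 0.164), the initiation factor subunit Eif3e at 0.19 (limma adjusted p = 0.233), and Tpt1 at 0.15. Of 5 measured cytosolic ribosomal genes outside the symbol rule 4 lay above 0 (median 0.08), with Fau at 0.13 (limma adjusted p = 0.406) and the stalk gene Rplp2 at 0.10 (limma adjusted p = 0.555).

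Genes of ribosome assembly and of ribosomal RNA synthesis were set beside the members. Of 40 ribosome biogenesis genes 8 lay above and 32 below 0, with a median of -0.07. None passed limma's adjusted threshold, and at an unadjusted p under 0.05 none was higher and 4 were lower, a share near the 9.38% of all genes. Ebna1bp2, a nucleolar factor of large subunit assembly, went from 8.72 ± 0.08 to 8.49 ± 0.08 (SD, n = 4 each; change -0.23, limma adjusted p = 0.139). Nop14, a factor of small subunit assembly, was at -0.15 (limma adjusted p = 0.240). Of 15 genes of RNA polymerase I, which transcribes ribosomal RNA, 7 lay above and 8 below 0 (median -0.04). At an unadjusted limma p under 0.05, 4 of the 15 were lower and none higher, where 9.38% and 7.29% of all genes were. The 4 included Taf1c at -0.24 (limma adjusted p = 0.111) and the initiation factor Rrn3 at -0.20 (limma adjusted p = 0.155). Most genes of both lists had levels between 8 and 11, where other genes also lay mostly below 0, with medians of -0.05 and -0.03.

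For mitochondria, 16 of 19 translation factors lay below 0 with a median of -0.06. Their median level was 8.92, and other genes with levels from 8 to 10 had a median of -0.05, with 35.1% above 0. The lowest p values of the translation factors were those of Eral1, which binds the small subunit RNA, at -0.14 (limma adjusted p = 0.265) and of Mtif3, an initiation factor, at -0.19 (limma adjusted p = 0.269). The nuclear subunits of oxidative phosphorylation were split evenly, 26 above and 26 below 0 among 52 (median 0.00). Cox5b was at -0.19 (limma adjusted p = 0.267) and Ndufv2 at 0.16 (limma adjusted p = 0.345). Of 4 measured mitochondrial ribosomal genes outside the symbol rule 3 lay above 0, with Chchd1 at 0.12 (limma adjusted p = 0.565), and Gadd45gip1 was below at -0.24 (limma adjusted p = 0.520).

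MYC proteins are known activators of ribosomal genes, and 8 of the 9 listed family members were measured, 4 above and 4 below 0. Mycl, from 7.44 ± 0.22 to 6.87 ± 0.10 (SD, n = 4 each), fell by 0.58 (SE 0.11, limma adjusted p = 0.0278). It missed the threshold without wildtype replicates 1 (limma adjusted p = 0.0646), 2 (0.0617) or 3 (0.0670), without knock-out replicates 1 (0.0929), 3 (0.0733) or 4 (0.0933), in the fit that adds Y-linked signal (0.0570) and without moderation (0.118). Mxd1, an antagonist of MYC, was at -0.20 (limma adjusted p = 0.164).

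Other cell types in a dissected ridge bring their own ribosomes, and in RNA of whole tissue fewer cells of a type and less RNA per cell cannot be told apart. Of 12 measured markers of red blood cells (14 listed) 11 lay below 0, with a median of -0.25, and 5 were lower at an unadjusted limma p under 0.05, where 9.38% of all genes were. Their mean level was 8.40 to 9.005 in wildtype and 8.36 to 8.65 in knock-out arrays, and Rhd (-0.51, limma adjusted p = 0.0827) and Rhag (-0.45, 0.126) had the lowest p. Of 9 neuronal markers 8 lay below 0 (median -0.30), with mean levels of 8.07 to 8.50 in wildtype and 7.85 to 8.19 in knock-out arrays. Dcx, a microtubule protein of young neurons, passed the threshold at -0.93 (limma adjusted p = 0.0384), and its adjusted p ranged from 0.0108 to 0.155 over the alternatives. It missed the threshold without any 1 array other than knock-out replicate 3 (up to 0.113). Elavl4, an RNA-binding protein of neurons, was at -0.30 (limma adjusted p = 0.173). Of 12 muscle markers 9 lay above 0 (median 0.12), with mean levels of 7.01 to 7.12 and 7.09 to 7.38, and 4 were higher at an unadjusted limma p under 0.05, where 7.29% of all genes were. Des had the lowest limma adjusted p (0.0600), at a change of 0.38, and passed the threshold under median centring (0.0470), a further quantile normalization (0.0452), both level filters (0.0456 and 0.0337) and trended and robust moderation (0.0227). Myh7 was at 0.33 (limma adjusted p = 0.166). Endothelial markers had 7 of 8 above 0 (median 0.06, mean levels 9.31 to 9.69 and 9.45 to 9.73), and endodermal markers 5 of 7 (median 0.05, mean levels 6.28 to 6.48 and 6.34 to 6.59). The median level was 6.53 for the muscle and 6.22 for the endodermal markers. Other genes with levels from 6 to 8 also lay mostly above 0 (59.7%, median 0.04). The lowest p of the endothelial list were those of Emcn at 0.18 (limma adjusted p = 0.493) and Cdh5 at 0.15 (0.524). For endoderm they were those of Afp at 0.18 (limma adjusted p = 0.529) and Ttr at 0.16 (0.640). The part of these cells in the values of the ribosomal genes was not tested.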

How the data were processed

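Affymetrix whole-transcript arrays were hybridised with RNA of 4 wildtype and 4 Sox11 knock-out ridges after reduction of ribosomal RNA, per the labels' protocols. The authors deposited 1 log2 value for each of 27478 probe sets and array. RMA and Partek are named in the submitters' processing notes; the sources used here give no versions or settings. RMA brings the arrays to nearly 1 distribution, which hides any shift shared by all transcripts. The precision is limited by the number of arrays.

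Probe sets were named from the platform annotation (21103 with 1 symbol, 1531 with several, 4844 with none), with symbols looked up in RefSeq GRCm38.p6, where 72 had no entry. The probe set with the highest mean stood for each of 19356 genes. The comparison of genotypes used limma 3.58.1 under R 4.3.3 (eBayes without trend, two-sided, Benjamini-Hochberg over all genes, threshold 0.05), which was tested on simulated data. Sequences came from RefSeq promoter windows.

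Named were Sox11, the 3 largest changes each way and the highest and lowest level per class, paralogues, and the 2 lowest p of each list. Others (such as Rpl19, Rpl37a, Rpl7a, Rpl10a, Rpl41, Rpl13, Rps25, Rpl38, Rps20 and Tpt1) were chosen after their values were seen. The members and lists were chosen with earlier results of these data known. Alternatives were other normalizations, level filters, probe set rules, moderation, array weights, the replicate block, a Y-linked covariate, another threshold and leaving out each array.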

Additional observations from a re-analysis of the deposited data

Results flagged for a closer look

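In 7 of 98 groups of 4 arrays examined (the named members and the class medians, each in both genotypes), 1 array stood apart from the other 3 by more than Dixon's 95% critical value allows. Chance alone sets about 1 in 20 groups apart in this way. In the knock-out group Mrpl19 read 8.96 in replicate 4 and 9.38 to 9.44 in the others. Rpl14 read 8.86 in replicate 3 and 9.05 to 9.07 in the others. Rpl29 read 10.68 in replicate 1 and 10.47 to 10.50 in the others. In replicate 2 Rpl5 read 13.01 against 13.13 to 13.14, and Rps10 read 11.54 against 11.45 to 11.46. In wildtype replicate 4 Rpl27a read 11.71 against 12.14 to 12.20, and Rpl36a read 12.61 against 12.48 to 12.49.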

How the results depend on the processing

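Over the alternatives that refit the table, the count of cytosolic genes above 0 stayed between 48 and 53 of 59 (48 of 57 and 47 of 55 under the level filters), and the cytosolic median between 0.08 and 0.13. The mitochondrial median ran from -0.04 to 0.02 and so changed sign. Rps2 without knock-out replicate 4 was the 1 member called, in the cytosolic small subunit. Median centring gave cytosolic medians of 0.13 (all) and 0.12 (small subunit), 19 cytosolic genes with every knock-out array above (5.96% of all genes) and 0 below, and 2 mitochondrial below (4.37% of all genes). A further quantile normalization gave 0 cytosolic and 2 mitochondrial genes fully below (5.25% of all genes), and averaging the probe sets of each gene 1 mitochondrial fully above (4.01% of all genes). The other single-symbol probe sets gave a cytosolic median of 0.17 and those with several symbols 0.13, both added after seeing the data, as were the counts of non-overlapping groups under each alternative. Leaving out 1 array gave up to 19 cytosolic and 6 mitochondrial genes fully above (without wildtype replicate 1, where 6.51% of all genes were), up to 2 cytosolic fully below (without knock-out replicate 4, 7.68%), and 7, 9 and 12 mitochondrial fully below without knock-out replicate 2 and wildtype replicates 3 and 4 (9.58%, 8.52% and 10.1% of all genes). Without wildtype replicate 4 the mitochondrial small subunit had 5 genes above 0 (up to 13 without another array). Of all genes 279 were called, 55 without moderation, 151 in the fit that adds Y-linked signal, 683 at a threshold of 0.10, and 107 to 243 when 1 array was left out.

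With the replicate number as a block 166 genes were called and no member. Deviations of same-numbered arrays correlated at -0.165, 0.0897, -0.0397 and 0.0621. The labels do not say what the numbers mark, and such correlations cannot show whether arrays shared a litter or day.

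Genes near 0 changed sign without being called. Median centring gave Rpl7l1 0.023 and Rps27l 0.014, and quantile normalization Rpl10 -0.063, Rpl7l1 0.015 and Rps27l 0.011. Array weights gave Mrps15 -0.047, Rpl10 -0.0030 and Rpl7l1 0.00038, and the fit with Y-linked signal Mrps15 -0.0072, Rpl10 -0.0047 and Rpl7l1 0.0061. With 1 array left out, Rpl22 ran from -0.012 to 0.060, Rpl34 from -0.029 to 0.506, Mrpl42 from -0.076 to 0.0065, Rps27l from -0.099 to 0.034, Rpl10 from -0.014 to 0.033, Rpl39l from -0.121 to 0.0085, Mrps15 from -0.112 to 0.071 and Rpl7l1 from -0.028 to 0.030. The cause of these shifts was not tested.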
